A study of Saccharomyces cerevisiae with 3 samples.

Results

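The 10 genes described here are ARO3, ARO4, ARO1, ARO2, ARO7, TRP2, TRP3, TRP4, TRP1 and TRP5 of the budding yeast Saccharomyces cerevisiae. Except for ARO7, they encode the enzymes that build tryptophan and the shared precursor of tryptophan, phenylalanine and tyrosine. ARO7 encodes the first step from that precursor towards phenylalanine and tyrosine. The 10 genes were chosen by name, as the rows whose gene name in the array annotation is one of these. Each had a single row among 6337 rows, or 6282 genes after rows of the same gene were averaged. Expression was measured on 3 one-colour NimbleGen arrays that carry 15 pairs of perfect-match and mismatch probes for each gene. All RNA came from the haploid strain BY4742, as 1 pool of 3 cultures for each condition. The control cells grew at 0.1 MPa, atmospheric pressure, and 24 °C and were harvested at their growth density. The high-pressure cells were held at 25 MPa and 24 °C for 5 h, and the low-temperature cells for the same time at 15 °C and atmospheric pressure. No 5 h hold is stated for the control, so time in culture cannot be told apart from either treatment where the control is the reference.

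Each condition is a single array, so no difference between conditions was tested and every value below describes these 3 arrays. Precision is limited by this number of arrays. Array levels are relative to the RNA put on the array, so a change in total RNA per cell cannot be read from them.

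Aromatic amino acid synthesis starts with 2 sugar-derived precursors, erythrose 4-phosphate and phosphoenolpyruvate, which are joined by the isozymes Aro3 and Aro4. The shikimate pathway then leads to chorismate, the branch point: Aro7 takes chorismate towards phenylalanine and tyrosine, and the Trp enzymes take it to tryptophan. The pathway is known for feedback inhibition by its end products and for transcriptional control by the activator Gcn4. In yeast, strains that cannot make their own tryptophan are known for poor growth under high pressure, where they depend on uptake through the permease Tat2. BY4742 carries the tryptophan synthesis genes, and its deleted markers are HIS3, LEU2, LYS2 and URA3.

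The strain label was read against marker genes first. All 4 alpha-specific mating genes were above mismatch on all 3 arrays, and 5 of 7 a-specific genes were above mismatch on none. Of the 4 deleted markers, 3 were above mismatch on no array and HIS3 was above mismatch on all 3. A gene is called above mismatch here when its perfect-match probes were brighter than their mismatch partners on average, with the difference over the 15 pairs past a one-sided 5% limit. The free text given with each sample speaks of another strain background and of rich medium, in conflict with the titles, so the supply of aromatic amino acids in the medium cannot be taken from them. The median log2 level over all genes was 6.43 to 6.98 on the 3 arrays, lowest on the control array. Of all rows, 54.2% to 62.4% were above mismatch.

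All 10 synthesis genes were above mismatch on all 3 arrays. TRP5 stood farthest above its mismatch probes, with a perfect-match to mismatch ratio of 20.1 in the control, 30.5 under pressure and 22.1 in the cold. ARO7 stood closest to them, at 1.72, 2.03 and 1.99. Its probe-pair difference on the control array gave a t value of 1.83 against the limit of 1.76, so its control level is the least secure of the set. The 10 genes lie on 6 chromosomes, with 4 of them (TRP1, TRP4, ARO1 and ARO3) on chromosome IV. The array annotation of TRP1 records an internal stop codon in the reference sequence then in use, and whether that affects its probes was not tested.

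Against the control on the RMA scale, ARO2 and ARO4, which supply chorismate, were lower under both treatments and ARO7 was higher under both. The tryptophan branch stayed close to its control level under pressure on that scale. In the cold 4 of the 5 TRP genes had negative ratios on the RMA scale, but all 5 had positive ones with perfect-match intensities. The median perfect-match ratio over all genes was 0.41 in that comparison. These intensities were also centred on each array's median, a setting added after the data were seen. TRP2, TRP3, TRP4 and TRP5 then had -0.28, -0.33, -0.44 and -0.38 in the cold, and TRP1 had 0.02. Counted past 1.5-fold, which the study's own design text uses as its limit, 2 of the 10 genes (ARO2 and ARO4) were lower and 1 (ARO7) was higher under pressure. Of all 4912 genes bright enough to be counted, 12.3% were lower and 28.1% higher in that comparison. In the cold 3 genes (ARO2, ARO4 and TRP5) were lower and 1 (ARO7) was higher, beside 9.64% lower and 34.7% higher among 4887 genes. With 10 members, the counts of lower genes lie within about 2 genes of those shares, and the counts of higher genes lie below them.

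**Figure D1:**
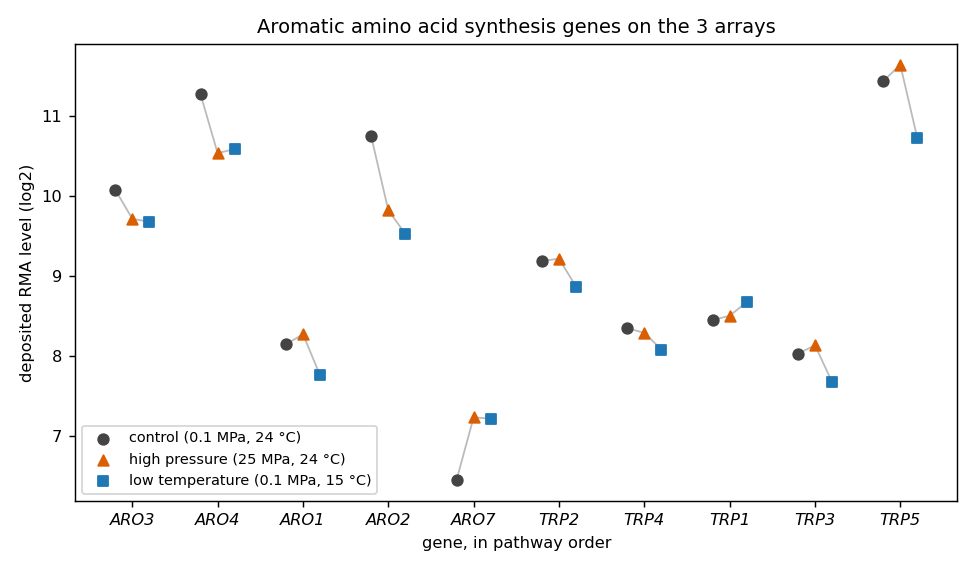
Deposited RMA level (log2, vertical axis) of the 10 genes in pathway order, with 1 symbol for each array and no replicates; grey lines join the arrays of a gene, and heights are comparable within a gene only. The control circle lies clearly above both other symbols for ARO3, ARO4 and ARO2 and clearly below them for ARO7, and TRP5 has its lowest symbol at low temperature.

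The first step is shared by ARO3 and ARO4, whose products are known to be inhibited by phenylalanine and by tyrosine respectively. ARO4 had a log2 level of 11.27 in the control, 10.53 under pressure and 10.58 in the cold. The 2 treated arrays lay within 0.05 of each other and both below the control. Its log2 ratio was -0.73 under pressure (1.66-fold lower) and -0.68 in the cold (1.61-fold lower). ARO3 had levels of 10.08, 9.71 and 9.67 in the same order, so it showed the same arrangement with a smaller gap. Its ratios of -0.37 and -0.40 stayed inside 1.5-fold. On the high-pressure array the mismatch probes of ARO3 averaged 264, against 131 and 123 on the control and low-temperature arrays, with a coefficient of variation of 2.16 over the 15 probes. With the perfect-match intensities in place of the RMA levels, ARO4 had -0.39 under pressure and -0.0087 in the cold, and ARO3 had 0.033 and 0.21, so none of these passed 1.5-fold.

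ARO1 and ARO2 carry the pathway from the first step to chorismate. ARO2, chorismate synthase, had the lowest ratio of the 10 genes in both comparisons with the control, also with perfect-match intensities and under each scaling tried. Its log2 level was 10.74 in the control, 9.82 under pressure and 9.52 in the cold, a ratio of -0.92 under pressure (1.90-fold lower) and -1.22 in the cold (2.33-fold lower). Among all genes these ratios stood at the 4.78 and 1.54 percentiles. The mean perfect-match intensity of ARO2 was 1764, 1195 and 1185 and its mismatch intensity 287, 280 and 348, and the perfect-match ratios of -0.56 and -0.57 stood at the 4.44 and 2.10 percentiles, just inside 1.5-fold. The position of ARO2 among all genes was thus close in both sources of values, while the size of its ratio was not.

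ARO1 encodes a single large polypeptide that carries out the central reactions of the shikimate pathway. Its levels were 8.14, 8.27 and 7.76 in control, pressure and cold. The control and high-pressure levels differed by 0.13. The cold level was the lowest, with a ratio of -0.38 against the control that stayed inside 1.5-fold. With perfect-match intensities the ratios of ARO1 were 0.22 under pressure and -0.016 in the cold. With those intensities centred they were -0.0089 and -0.55, and without the trend on gene length 0.37 and -0.045. On the RMA scale the 2 shikimate genes therefore differed from each other under pressure, ARO2 being lower and ARO1 near its control level.

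ARO7, chorismate mutase, opens the branch to phenylalanine and tyrosine and is known to be activated by tryptophan and inhibited by tyrosine. It was the only member higher past 1.5-fold on the RMA scale in either comparison. Its level was 6.44 in the control, 7.23 under pressure and 7.21 in the cold. The treated arrays differed by 0.02 and both lay above the control, by 0.79 (1.72-fold) and 0.77 (1.70-fold). ARO7 was positive under each setting, but it was inside 1.5-fold in both comparisons when the arrays were centred on their medians (0.45 and 0.22). The same held with quantile normalization (0.47 and 0.23), without the trend on gene length (0.56 and 0.49) and with centred perfect-match intensities (0.21 and 0.16). With perfect-match intensities it was inside under pressure (0.44) and past 1.5-fold in the cold (0.69). Among all genes its RMA ratios stood at the 82.6 and 77.3 percentiles. Its mismatch intensity was also higher on the treated arrays, at 207 and 251 against 180 on the control, beside perfect-match intensities of 421, 500 and 310. The mean difference between perfect match and mismatch for ARO7 was 129 in the control, 214 under pressure and 249 in the cold. How far signal shared with the mismatch probes entered its ratios was not tested.

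The tryptophan branch opens with anthranilate synthase, made of Trp2 and the bifunctional Trp3, which also closes the indole ring. TRP2 had levels of 9.18, 9.21 and 8.86 in control, pressure and cold, and TRP3 had 8.02, 8.13 and 7.67. For both genes the control and high-pressure arrays lay close together on the RMA scale and the low-temperature array lay lowest. Their RMA ratios under pressure were 0.03 and 0.11, and in the cold -0.32 and -0.35, all inside 1.5-fold. The perfect-match intensities, in the same order of arrays, were 685, 839 and 815 for TRP2 and 505, 602 and 580 for TRP3. The control was thus lowest there. With those intensities centred the ratios were 0.06 and 0.02 under pressure and -0.28 and -0.33 in the cold.

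TRP4 and TRP1 encode the next enzymes, which attach the ribose phosphate of PRPP to anthranilate and then rearrange it. TRP4 had levels of 8.34, 8.29 and 8.08, with ratios of -0.05 under pressure and -0.26 in the cold. TRP1 had levels of 8.45, 8.50 and 8.67 and was the only gene of the branch with its highest level in the cold, by 0.22 over the control. Neither gene passed 1.5-fold in any of the 3 comparisons. TRP1, a common selection marker in other laboratory strains, gave signal on all 3 arrays with a perfect-match to mismatch ratio of 5.81 to 8.44.

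TRP5, tryptophan synthase, joins indole to serine in the last step, and it was the member that differed most between the 2 treatments. Its level was 11.43 in the control, 11.64 under pressure and 10.72 in the cold. It was close to the control under pressure, with a ratio of 0.21 (1.15-fold), and lower in the cold, with -0.71 (1.64-fold lower). The perfect-match intensities were 3544, 5425 and 3926, which gave ratios of 0.61 under pressure, past 1.5-fold, and 0.15 in the cold. The direction of TRP5 in the cold against the control was therefore opposite in the 2 sources of values. Centring those intensities on each array's median, a setting added after the data were seen, gave 0.38 and -0.38.

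**Figure D2:**
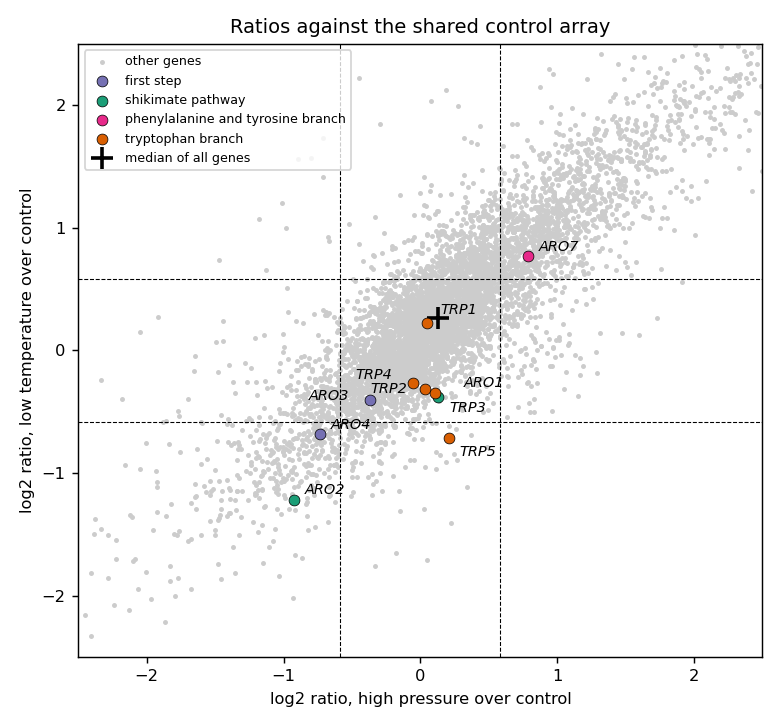
Log2 ratio of high pressure over control (horizontal) against low temperature over control (vertical) for the 10 genes, coloured by role, and all other genes in grey; the cross marks the median of all genes, dashed lines mark 1.5-fold, and 76 genes beyond 2.5 on an axis are not drawn. Both axes share the control array, so the position along the diagonal is partly shared. ARO2 and ARO4 lie at the lower left, ARO7 at the upper right, and TRP5 at the lower edge of the cloud at 0.21 and -0.71.

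High pressure was also set directly against low temperature, without the control array. TRP5 was 1.89-fold higher under pressure than in the cold (log2 ratio 0.92, the 98.7 percentile of all genes) and was the only 1 of the 10 genes past 1.5-fold. In this comparison 4.26% of 4807 genes were higher and 10.1% lower, and no member was lower. ARO1 (0.51), TRP3 (0.46), TRP2 (0.35) and TRP4 (0.21) were also higher under pressure, inside 1.5-fold, and stood between the 85.0 and 95.7 percentiles. ARO3, ARO4 and ARO7 had 0.04, -0.05 and 0.02 on the RMA scale, but -0.18, -0.38 and -0.25 with perfect-match intensities, where ARO4 was the lowest member. TRP1 had -0.17 and ARO2 0.30.

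The positive sign of TRP5, ARO1, TRP2, TRP3, TRP4 and ARO2 in the pressure to cold comparison held under each value source and scaling. For TRP2, TRP3, TRP4 and ARO2 the perfect-match values were small, at 0.042, 0.054, 0.075 and 0.012. With perfect-match intensities TRP5 had 0.47, inside 1.5-fold but at the 97.7 percentile, and ARO1 had 0.24 at the 94.0 percentile. After centring each array on its median, and likewise with quantile normalization of the gene values, TRP5, ARO1 and TRP3 were the 3 genes past 1.5-fold. The median gene was at -0.12 in this comparison, and 9 of the 10 members lay above it on the RMA scale, or 7 of 10 with perfect-match intensities.

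Over the 10 genes, the median log2 ratio was 0.04 under pressure, beside 0.13 for all genes, and its sign turned with the arrays centred (-0.30). In the cold it was -0.37 beside 0.26 for all genes, and 9 of the 10 genes lay below the median gene. With perfect-match intensities the cold median was 0.17 beside 0.41 for all genes, so its sign turned, while 8 of the 10 genes still lay below the median gene. With those intensities centred the cold median was -0.36 beside -0.12 for all genes. Brightness moved with this result: when all genes were split into 4 equal bins by mean level, 6 of the 10 members fell in the brightest bin and the other 4 in the next. In the cold the RMA ratios over all genes of these 2 bins had medians of 0.05 and 0.36, against 0.65 and 0.54 with perfect-match intensities. The part of brightness in the members' ratios was not tested.

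The ratios of the members had an SD of 0.49 under pressure, against 0.75 over all genes, and in the cold 0.54 against 0.73. The median size of a member's ratio, whatever its sign, was 0.17 under pressure against 0.37 over all genes, and 0.39 against 0.42 in the cold. The spread came from ARO2, ARO4 and ARO7 under pressure, since the other 7 ratios lay between -0.37 and 0.21.

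**Figure D3:**
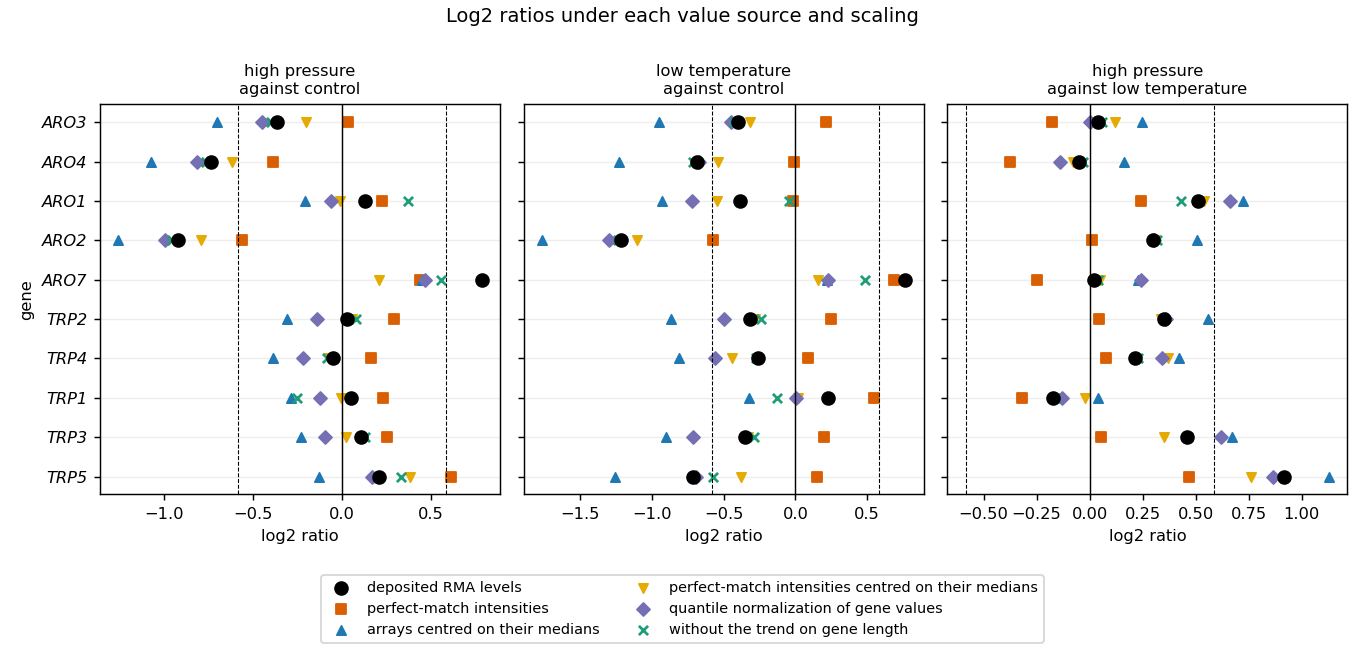
Log2 ratio of each gene (rows, pathway order) in the 3 comparisons (panels) under the deposited RMA levels (black circles) and 5 other value sources or scalings; dashed lines mark 1.5-fold and there are no replicates. ARO2 stays left of 0 in both comparisons with the control and TRP5 right of 0 in the third panel, whereas the ratios of most TRP genes against the control fall on both sides of 0.

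By the 2 RMA ratios against the control, the 5 genes outside the set with the pattern nearest to that of ARO2 were PRS5, FKS1, YOR309C, ATP6 and SFA1. Their Euclidean distances were 0.02 to 0.09, among 2893 genes above mismatch on all arrays. ATP6 had low levels, at 5.44, 4.52 and 4.13 in control, pressure and cold. This likeness rests on 3 arrays that share 1 control. PRS5, a subunit of the synthetase that makes the PRPP used by Trp4, had ratios of -0.94 and -1.21. With perfect-match intensities PRS5 had -0.50 and -0.34, where ARO2 had -0.56 and -0.57.

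The other genes around the pathway are given by lists that were chosen with earlier results of these data known. Of all genes counted, 12.3% were lower and 28.1% higher under pressure, and 9.64% and 34.7% in the cold. With perfect-match intensities 258 genes were lower and 1192 higher under pressure, and 114 and 2264 in the cold. The median gene then had 0.15 and 0.41. The end steps to phenylalanine and tyrosine hold PHA2, TYR1 and the transaminases ARO8 and ARO9, and 2 of these 4 genes (TYR1 and ARO8) were above mismatch on any array. TYR1, prephenate dehydrogenase, had levels of 7.43, 7.95 and 7.90 in control, pressure and cold and stayed inside 1.5-fold, with 0.52 and 0.47. ARO8, the main aromatic aminotransferase, had 11.15, 11.41 and 10.26. It was close to the control under pressure (0.26) and 1.86-fold lower in the cold (-0.89), but inside 1.5-fold there with perfect-match intensities (-0.28). With those intensities centred the cold ratio was -0.81. ARO8 was 2.23-fold higher under pressure than in the cold (1.16), and 0.82 with perfect-match intensities. PHA2, prephenate dehydratase, had 7.14, 7.12 and 7.06 but was above mismatch on no array. ARO9 had 6.88, 6.22 and 6.67 and ARO10, a decarboxylase of aromatic amino acid breakdown, 5.37, 4.82 and 5.04, and since neither was above mismatch on any array their folds are left out. ARO80, the activator of the breakdown genes, had 5.07, 5.15 and 5.27. Of these 3 breakdown genes only ARO80 was above mismatch on any array, and its levels were too low to be counted.

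Several genes that supply the pathway with precursors were lower. Of 10 pentose phosphate pathway genes, which lead to erythrose 4-phosphate, 6 were lower and 0 higher under pressure, with a median log2 ratio of -0.71. With perfect-match intensities 3 were lower and 1 higher (median -0.34). Among all genes on the RMA scale 12.3% were lower and 28.1% higher under pressure, and 9.64% and 34.7% in the cold. The transketolase gene TKL2 had -2.05 (4.14-fold lower) as the plain RMA ratio, and -1.28 with perfect-match intensities. Its level under pressure was not above mismatch, so the size of this fold is uncertain. RKI1, ribose phosphate isomerase, had -1.61 (3.05-fold lower). In the cold 5 were lower and 1 higher, and the median was -0.35, but with perfect-match intensities 0 were lower and 3 higher and the median was 0.15. RPE1, an epimerase, had -1.11 (2.15-fold lower) and the main transketolase TKL1 -1.03 (2.05-fold lower) on the RMA scale, against -0.29 and -0.20 with perfect-match intensities. With those intensities centred they had -0.82 and -0.73. SOL4 was 2.43-fold higher (1.28), and 1.44 with perfect-match intensities.

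Of the 5 PRPP synthetase genes 3 (PRS1, PRS3 and PRS5) were lower and 0 higher in each comparison with the control. Lower genes made up 12.3% of all genes under pressure and 9.64% in the cold. The list's median was -0.60 under pressure and -0.81 in the cold, and it was negative under each setting, but no gene passed 1.5-fold with perfect-match intensities. With those intensities centred 2 were lower under pressure and 3 in the cold. Serine, the other substrate of Trp5, is made through SER3 and SER33, and neither was lower. Of 4 serine genes 2 were higher under pressure, SER3 at 0.99 (1.98-fold) and SER33 at 0.73 (1.65-fold), and 1 in the cold, SER3 at 0.92 (1.89-fold). Among all genes 28.1% were higher under pressure and 34.7% in the cold. With the arrays centred SER33 under pressure (0.39) and SER3 in the cold (0.37) were inside 1.5-fold, and the list's median of 0.33 in the cold turned to -0.22.

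**Figure D4:**
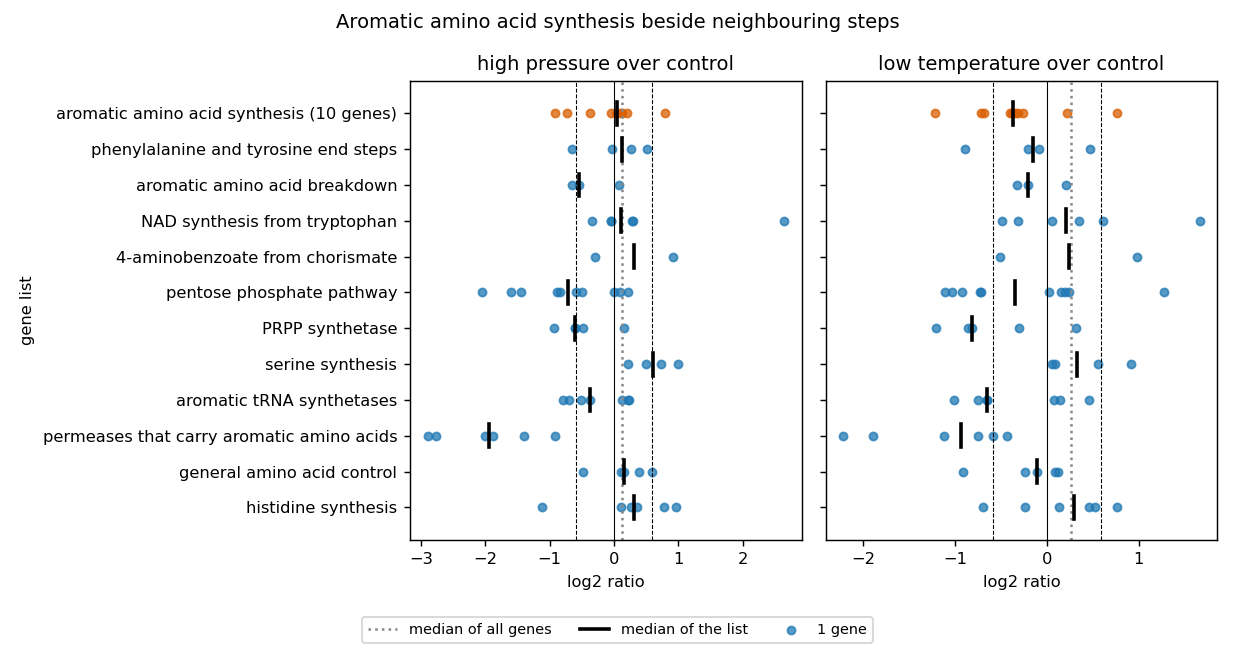
Log2 ratio of each gene (points) in the 10-gene set and in 11 lists of neighbouring steps, for high pressure and low temperature over the shared control; black bars are list medians, the dotted line is the median of all genes and dashed lines mark 1.5-fold. The permease list lies farthest left in both panels, with medians of -1.94 and -0.94, and the 10-gene set has medians of 0.04 and -0.37.

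Permeases that carry aromatic amino acids had the lowest median of the 11 lists in both comparisons on the RMA scale. All 6 were lower under pressure and 4 in the cold, beside 12.3% and 9.64% of all genes. The medians were -1.94 and -0.94, and they were negative under each setting. With perfect-match intensities 5 were lower under pressure and 2 in the cold, with medians of -1.27 and -0.30. With those intensities centred 5 were lower under pressure and 4 in the cold, with medians of -1.50 and -0.83. TAT2, the high-affinity tryptophan permease, had levels of 10.34, 8.94 and 9.22 in control, pressure and cold, a ratio of -1.40 (2.64-fold lower) under pressure and -1.13 (2.18-fold lower) in the cold. With perfect-match intensities its ratios were -0.84 and, inside 1.5-fold, -0.50. With those intensities centred they were -1.08 and -1.03. On the RMA scale the 5 TRP genes had ratios of -0.05 to 0.21 under pressure and -0.71 to 0.22 in the cold. The difference between uptake and synthesis genes was not tested.

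Genes that use the products gave mixed values. In the conversion of tryptophan to NAD, 1 of 6 genes was higher under pressure and 2 in the cold, beside 28.1% and 34.7% of all genes. In both comparisons 0 were lower, beside 12.3% and 9.64% of all genes. The second gene higher in the cold, BNA4 at 0.61, was 0.06 with the arrays centred. BNA1, which acts late in that route, had levels of 6.77, 9.41 and 8.43, so it was 6.25-fold higher under pressure (2.64) and 3.17-fold higher in the cold (1.66), and past 1.5-fold under each setting in both. BNA2, the first enzyme of the route, had levels between 5.73 and 6.08 and was above mismatch on no array. Of the 2 genes from chorismate to 4-aminobenzoate, ABZ2 was higher on the RMA scale under pressure (0.92, 1.90-fold) and in the cold (0.98, 1.98-fold). Its control level was not above mismatch, so the size of these folds is uncertain. With centred perfect-match intensities ABZ2 had 0.50 and 0.22, inside 1.5-fold. In the cold it was also inside with the arrays centred (0.43) and with quantile normalization (0.48). ABZ1 stayed inside 1.5-fold at -0.30 and -0.51.

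Of 7 genes that charge tRNA with tryptophan, phenylalanine or tyrosine, 2 were lower under pressure and 4 in the cold, with medians of -0.37 and -0.65. Among all genes 12.3% were lower under pressure and 9.64% in the cold. With perfect-match intensities 0 were lower in either comparison and the medians were -0.04 and 0.02, beside 0.15 and 0.41 for all genes. With those intensities centred 1 was lower under pressure and 2 in the cold, with medians of -0.27 and -0.51. WRS1, the cytosolic tryptophan enzyme, had -0.51 under pressure, inside 1.5-fold, and -0.65 in the cold (1.57-fold lower). The cold ratios of WRS1 and the other cytosolic genes FRS1, FRS2 and TYS1 were -0.65, -0.65, -1.01 and -0.75 on the RMA scale, against 0.02, 0.19, -0.12 and -0.22 with perfect-match intensities. With those intensities centred they were -0.51, -0.34, -0.65 and -0.75.

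GCN4, the activator of amino acid synthesis genes, is controlled mainly through translation, so its mRNA level is no measure of its activity. It had levels of 12.18, 12.56 and 11.93, with 0.39 under pressure and -0.24 in the cold, both inside 1.5-fold, and 0.63 (1.55-fold) under pressure over the cold. With perfect-match intensities GCN4 had 0.74 and 0.63 against the control, both past 1.5-fold with the sign in the cold turned, and 0.11 between the treatments. The median gene had 0.15 and 0.41 against the control with those intensities. After centring them GCN4 had 0.50 and 0.10, both inside 1.5-fold. Of the 5 general control genes 0 were higher against the control on the RMA scale and 1 was lower, GCN1 in the cold (-0.91, 1.88-fold lower). GCN20 lay just inside the limit under pressure, at 0.584 against 0.585. Without the trend on gene length GCN20 was higher under pressure (0.71), and GCN1 had -0.45 in the cold, so 0 were lower. With the arrays centred 1 was lower under pressure and 3 in the cold. With perfect-match intensities GCN4 was the 1 higher in each comparison, 0 were lower and GCN1 had -0.18 in the cold. With those intensities centred 0 were higher in either comparison, and 1 was lower in the cold, GCN1 at -0.71. Histidine synthesis, another Gcn4-controlled pathway, had 2 of 6 genes higher and 1 lower under pressure and 1 higher and 1 lower in the cold, with medians of 0.31 and 0.29 that turned to -0.03 and -0.26 with the arrays centred. HIS2 was higher under pressure at 0.97 (1.96-fold) and HIS6 lower at -1.12 (2.17-fold lower), and HIS2 (0.76) and HIS6 (-0.69) were also the 2 past 1.5-fold in the cold. With perfect-match intensities HIS6 was inside 1.5-fold, at -0.57 and -0.24, and with the arrays centred HIS2 had 0.63 and 0.21. With centred perfect-match intensities HIS6 had -0.80 and -0.77.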

How the data were processed

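Levels are log2 values that the authors made, per the labels, by RMA, the robust multiarray average, after quantile normalization. The deposited levels do not share 1 distribution over the 3 arrays, however. Their medians were 6.43 in the control, 6.76 under pressure and 6.98 in the cold. The version of RMA, the background correction and the genome build of the probes are not given in the sources used here. The deposited per-array tables give perfect-match and mismatch intensity as linear means over 15 probes, with a coefficient of variation, under no recorded normalization. Over rows, an RMA column had its highest correlation with the log2 perfect-match intensity of the same array (r 0.924 to 0.932).

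Row names came from the files and were matched to RefSeq R64 for symbols and gene lengths (1723 by locus tag, 3953 by symbol, 135 by synonym, 526 unmatched). Rows of 53 genes with more than 1 row were averaged. A log2 ratio is the difference of 2 levels. Genes were counted past 1.5-fold if the higher level reached the 25th percentile of its array. Each condition is 1 array, so no test was run. The alternatives were perfect-match intensities, median centring, quantile normalization of gene values, removal of a lowess trend on gene length (span 0.3, 91.7% of genes with a length), no filter, 2-fold, members above mismatch only, and centred perfect-match intensities, the last added after seeing the data. All 10 genes were named, and genes of the other lists by a rule on size past 1.5-fold, with TAT2, GCN4, TYR1, PHA2, ARO8, ARO9 and ARO10 always named. BNA2, ARO80, ABZ1, RPE1, TKL1 and GCN20 were named beside these after their values were seen. Members and lists were chosen with earlier results of these data known. The calling steps were tested on simulated data. Python 3.11.15, numpy 2.4.6, pandas 2.3.3, scipy 1.17.1 and statsmodels 0.14.6 were used.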

Additional observations from a re-analysis of the deposited data

How the results depend on the processing

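No paired analysis was possible because each condition has 1 array. Under pressure, the 1 gene higher became 0 with the arrays centred, with centred perfect-match intensities, with quantile normalization, without the length trend and at 2-fold, and with perfect-match intensities the 1 gene higher was TRP5 in place of ARO7. The 2 genes lower became 0 with perfect-match intensities and at 2-fold. The median of 0.04 was 0.23 with perfect-match intensities, -0.30 with the arrays centred, -0.0059 with centred perfect-match intensities, -0.13 with quantile normalization and -0.0012 without the length trend. In the cold, the 1 gene higher became 0 under the same 5 settings. The 3 genes lower became 0 with perfect-match intensities, 8 with the arrays centred, 1 with centred perfect-match intensities, 5 with quantile normalization and 1 at 2-fold. The median of -0.37 was 0.17, -0.92 and -0.62 with perfect-match intensities, centring and quantile normalization, and -0.36 with centred perfect-match intensities. For TRP5 the cold ratio reversed to 0.15 with perfect-match intensities. For pressure over cold, the 1 gene higher became 0 with perfect-match intensities and at 2-fold and 3 with centring and with quantile normalization, and the median of 0.25 became 0.027 and 0.47 with perfect-match intensities and centring. All 10 genes passed the 25th percentile filter and were above mismatch on all 3 arrays. Dropping the filter or members not above mismatch therefore could not change a count. The cause of these differences was not tested. Over all genes, centring turned the split under pressure from 1378 higher and 603 lower to 843 and 1233, and in the cold from 1698 and 471 to 722 and 1501. Perfect-match intensities gave 1192 and 258, and 2264 and 114. Quantile normalization of the gene values gave 1006 and 918, and 997 and 973. For pressure over cold, 205 higher and 487 lower became 431 and 209 with centring and 84 and 822 with perfect-match intensities.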
